A study of Homo sapiens with 4 samples.

Results

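The genes described here encode the SR proteins and the hnRNPs, the main RNA-binding regulators of splice site choice, in the human glioblastoma cell lines U251 and U87 cultured with or without Bru. Members were the protein-coding genes of the deposited annotation named SRSF, HNRNP, TRA2A, TRA2B or PTBP with their number or letter, which gave 43 of 58735 genes. They comprised 14 genes of the SR group (12 SRSF genes with TRA2A and TRA2B), 26 HNRNP genes and 3 PTBP genes. Bru is brusatol, a quassinoid from the plant Brucea javanica that is known to inhibit protein synthesis and to lower NRF2. There were 4 libraries of total RNA, namely U251 Control, U251 Bru, U87 Control and U87 Bru, each from 1 culture of an established cell line. Exposure to Bru lasted 48 h, at a concentration given only as the IC50, and Control is the same line without Bru. With 1 library per condition no spread between replicates exists, so no test was made and each ratio compares 2 libraries, not 2 conditions.

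SR proteins carry RNA recognition motifs and a domain rich in arginine and serine. They bind mainly exonic enhancer sequences, recruit U1 snRNP and U2AF, and are switched by phosphorylation. hnRNPs coat nascent transcripts, and members such as hnRNP A1 and PTBP1 commonly repress the exons they bind. Many genes of both families hold a poison exon or intron by which the protein lowers its own mRNA through nonsense-mediated decay.

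Values are FPKM, fragments scaled to gene length and library size, as the authors computed them. The read counts behind the FPKM could be recovered and added up to between 17083896 and 21453561 per library. A log2 ratio is that of Bru to Control on FPKM + 0.1, given where the mean FPKM reached 1, which left 12949 genes, 38 of them members (13 SR, 22 hnRNP and 3 PTBP). Each interval in the text is the 95% exact Clopper-Pearson counting interval of the log2 ratio without pseudocount, and covers counting error only. The glioblastoma line marker VIM was at 701, 606, 669 and 633 FPKM in U251 Control, U251 Bru, U87 Control and U87 Bru, the order used for every set of 4 values here. CD44 was at 125, 94.5, 115 and 109 FPKM. SOX2 was at 129, 91.2, 0 and 0.0457 FPKM and NES at 125, 50.6, 1.46 and 0.569 FPKM, so that both were low or at 0 in the U87 libraries. GFAP, S100B and OLIG2 did not reach a mean FPKM of 1. Of the neuron genes, SNAP25 was at 1.89, 0.948, 6.28 and 5.65 FPKM and SYT1 at 6.02, 4.18, 2.22 and 1.73 FPKM, while RBFOX3 did not exceed 0.0386 FPKM. None of the blood and endothelial genes PTPRC, PECAM1 and HBB passed the filter.

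The promoters of the members were read from RefSeq (GRCh38.p14), where 38 of the 43 genes were found. HNRNPA1, HNRNPA1P48, HNRNPCL3, SRSF2 and TRA2A had no entry. The windows shown are the parts of the 250 bases before the RefSeq start that lie outside annotated exons. HNRNPA0 and HNRNPAB are shown because both were lower in U251 Bru, HNRNPC and HNRNPUL2 because both were higher there, and SRSF6 as an abundant SR gene. Capitals mark CCAAT, the box bound by NF-Y, and GGGCGG, the box bound by SP1, on either strand, so that ATTGG and CCGCCC mark the opposite strand.
HNRNPA0 (chr5:137754377-137754613, minus strand): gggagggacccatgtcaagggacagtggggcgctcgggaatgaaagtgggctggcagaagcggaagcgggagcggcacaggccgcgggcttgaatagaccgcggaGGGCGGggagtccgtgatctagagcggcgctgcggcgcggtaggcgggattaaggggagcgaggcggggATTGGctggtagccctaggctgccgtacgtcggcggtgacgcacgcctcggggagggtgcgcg
HNRNPAB (chr5:178204283-178204506, plus strand): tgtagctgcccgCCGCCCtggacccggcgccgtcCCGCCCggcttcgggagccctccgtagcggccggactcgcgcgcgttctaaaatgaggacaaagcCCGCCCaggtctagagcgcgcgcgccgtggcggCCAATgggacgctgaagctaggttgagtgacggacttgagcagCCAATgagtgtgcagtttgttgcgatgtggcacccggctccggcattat
HNRNPC (chr14:21269495-21269692, minus strand): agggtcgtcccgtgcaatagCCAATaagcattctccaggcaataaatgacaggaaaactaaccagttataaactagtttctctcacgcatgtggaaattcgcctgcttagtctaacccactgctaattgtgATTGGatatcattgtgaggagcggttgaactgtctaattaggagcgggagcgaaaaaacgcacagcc
HNRNPUL2 (chr11:62727473-62727707, minus strand): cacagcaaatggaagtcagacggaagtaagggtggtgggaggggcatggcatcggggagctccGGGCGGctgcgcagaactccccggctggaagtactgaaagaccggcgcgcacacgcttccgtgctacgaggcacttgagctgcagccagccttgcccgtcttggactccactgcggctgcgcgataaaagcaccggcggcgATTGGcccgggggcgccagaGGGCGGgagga
SRSF6 (chr20:43457646-43457895, plus strand): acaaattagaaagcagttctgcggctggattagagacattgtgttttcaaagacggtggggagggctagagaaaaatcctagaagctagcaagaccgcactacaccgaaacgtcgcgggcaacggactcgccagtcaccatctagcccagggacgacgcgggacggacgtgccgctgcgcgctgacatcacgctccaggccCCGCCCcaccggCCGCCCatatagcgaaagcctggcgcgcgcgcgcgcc
In HNRNPA0 the CCAAT box ran from base 76 to base 72 before the start, and in HNRNPAB the nearer of its 2 boxes ran from base 75 to base 71. In HNRNPUL2 the box lay at bases 46 to 42, and in HNRNPC the nearer box lay at bases 119 to 115. The printed SRSF6 window held no CCAAT and 2 GGGCGG boxes, at bases 49 to 44 and 37 to 32.

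Over the whole 250 bases, CCAAT was found in 14 of 20 hnRNP promoters and in 2 of 11 SR promoters, against 33.0% of 27305 RefSeq promoters of the same length. That background takes the first listed promoter of each symbol, whether or not the gene passed the FPKM filter. Member promoters are those of tested genes, at the RefSeq start nearest to the annotated 5′ end, so the sets are not matched. The hnRNP genes with the box included members lower in U251 Bru, such as HNRNPA0, HNRNPA3 and HNRNPDL, and the higher HNRNPC and HNRNPUL2. GGGCGG was found in 16 of 20 hnRNP and 4 of 11 SR promoters, against 42.3% of all. CACGTG, the E box bound by MYC and USF, was found in 6 of 20 hnRNP promoters (HNRNPA3, HNRNPD, HNRNPDL, HNRNPH2, HNRNPH3 and HNRNPM) and in 0 of 11 SR promoters, against 6.49% of all. TGACNNNGC, the core of the element bound by NRF2, was found in 2 hnRNP and 3 SR promoters, against 11.0% of all. Both strands were searched, each motif was counted on its own where motifs overlapped, and a match is a description of the letters only. For HNRNPA1L2 and SRSF5 the RefSeq start lay 24900 and 40242 bases from the 5′ end in the deposited annotation, so these windows may belong to other transcripts. SRSF5 is 1 of the 3 SR genes counted with TGACNNNGC.

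As a group the members were among the most abundant mRNAs. The tested members lay between 1.72 and 278 FPKM in U251 Control with a median of 44.3, and their medians in U251 Bru, U87 Control and U87 Bru were 36.5, 38.5 and 37.9 FPKM. Among the 1000 highest of 19951 protein-coding genes were 21, 18, 17 and 17 members. HNRNPA1, which binds splicing silencers and shuttles between nucleus and cytoplasm, was the highest member in 3 libraries with 278, 189, 230 and 235 FPKM. In U251 Bru it was passed by HNRNPAB, with 270, 194, 164 and 151 FPKM. HNRNPA2B1, which reads exonic silencers and sorts small RNAs, was next by mean level with 199, 155, 168 and 160 FPKM. The highest SR gene was SRSF2 with 83.4, 57.6, 68.5 and 54.7 FPKM, followed by SRSF6 with 57, 45.8, 71.4 and 68.5 FPKM and SRSF3 with 57.7, 61.6, 37.7 and 37 FPKM. In all 4 libraries each of these hnRNP genes stood above each of these SR genes. The order of the levels was alike in both lines, with r = 0.97 and rho = 0.94 between the log2 FPKM of the Control libraries over 38 genes, a description across genes that share gene lengths and annotation.

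**Figure D1:**
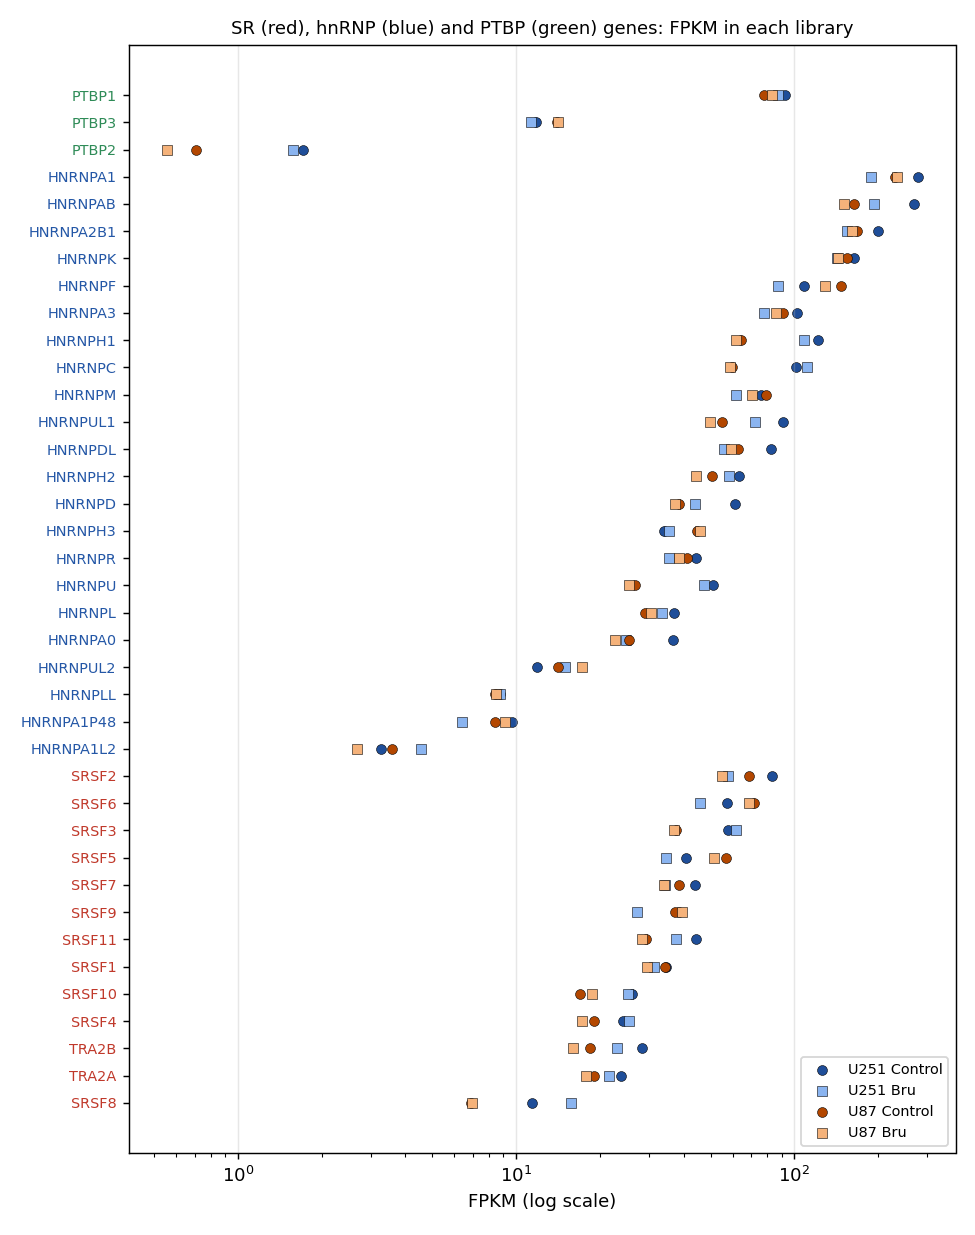
FPKM (log axis) of the 38 tested members in each of the 4 libraries, with circles for Control and squares for Bru and the genes ordered by mean FPKM within each family. The hnRNP genes at the top of their block lie above every SR gene, and PTBP2 is the lowest member with 1.72, 1.58, 0.710 and 0.555 FPKM.

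The 5 other members did not reach the filter. SRSF12, a divergent SR protein also known as SRrp35, had 56 and 47 reads in the U251 libraries and 0 reads in both U87 libraries. At the floor of 3 reads in U87 Control, its FPKM was at least 16.1-fold higher in U251 Control. The HNRNPC-like genes HNRNPCL1, HNRNPCL2, HNRNPCL3 and HNRNPCL4 had 0 reads in each library, which allows up to 3 reads.

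In U251, 31 of the 38 members had a lower FPKM in the Bru than in the Control library, where 52.1% of all tested genes did. In these bulk samples fewer cells of a kind and less RNA per cell cannot be told apart. The median log2 ratio was -0.30 for the hnRNPs, -0.23 for the SR group and -0.09 for the PTBP genes, against -0.03 over all 12949 genes and -0.04 over the 4752 genes whose mean FPKM reached 10. The counting interval lay below 0 for 27 members and above 0 for 6, against 35.9% and 30.9% of all genes. Whether an interval excludes 0 depends on reads, and the median mean FPKM was 39.9 for the members and 6.63 for all genes. No share over genes of like abundance was computed, so these interval counts, here and below, are not matched for depth. The changes were small: 5 members were below -0.5, which is 13.2% of them against 19.1% of all genes, 0 were above 0.5 against 14.3%, and 0 were past 2-fold in either direction against 5.44% lower and 3.36% higher. The members therefore lay on the lower side of the distribution without reaching its tail: 30 of 38 were below the median of all genes, where 50% of genes lie by construction, while 9 were in the lowest 25% and 3 in the highest 25%. The count below -0.5 depended on the scaling. The library sizes inside the FPKM were 20974002 for U251 Control and 18533374 for U251 Bru, while the reads on genes were 21453561 and 17847910. Scaled by reads on genes, 0 members were below -0.5 and 2 above 0.5, and the hnRNP and SR medians were -0.22 and -0.15. The same scaling moved the median of all genes to 0.05, and 30 of 38 members still lay below it. The hnRNP and SR medians minus that of all genes were -0.26 and -0.19, against -0.28 and -0.20 as deposited. Shares of all genes past 0.5 under this scaling are not given here.

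The hnRNPs in the lowest 25% of all genes in U251 were all of the A/B and D type, whose proteins share a pair of RNA recognition motifs and a glycine-rich tail. This grouping was made after the values were seen. Of 9 tested genes of this type 8 were lower in U251 Bru, 7 of them in the lowest 25% of all genes, and their median log2 ratio was -0.48. Their summed FPKM was 1042, 750.5, 792 and 762.8. The U251 Control sum stood above the other 3 libraries, which lay close together, and the share of all FPKM was 0.387%, 0.284%, 0.281% and 0.269%.

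HNRNPA1 (ENSG00000135486, chromosome 12, 54280193 to 54287088, plus strand) had 29681, 17833, 21192 and 20793 reads. Its log2 ratio was -0.56 in U251, interval -0.58 to -0.53, and 0.03 in U87, interval -0.00 to 0.05. The highest level was in U251 Control, the lowest in U251 Bru, and both U87 libraries lay between them. The counting interval of the difference between lines was -0.62 to -0.54.

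HNRNPA0 (ENSG00000177733, chromosome 5, 137745651 to 137754376, minus strand), which binds AU-rich elements of cytokine mRNAs, was at 36.6, 24.9, 25.4 and 22.7 FPKM. U251 Bru was lower than U251 Control by a log2 ratio of -0.55, interval -0.61 to -0.50, and the ratio in U87 was -0.16, interval -0.23 to -0.09. U251 Control alone was high. HNRNPDL (ENSG00000152795, chromosome 4, 82422564 to 82430408, minus strand), a paralog of HNRNPD, was at 82.1, 55.9, 62.7 and 59 FPKM, and its ratios were -0.55 for U251 and -0.09 for U87. HNRNPD, known as AUF1 and as a regulator of mRNA decay, was at 61.2, 44, 38.6 and 37.4 FPKM, with log2 ratios of -0.47 and -0.05. HNRNPAB had log2 ratios of -0.48, interval -0.52 to -0.44, and -0.12, interval -0.17 to -0.07. HNRNPA3 was at 102, 77.5, 91 and 85.9 FPKM with -0.40 and -0.08, and HNRNPA2B1 had -0.37 and -0.07. Apart from HNRNPA1, each of these genes was lower in the Bru library of both lines, and by more in U251, although the interval of HNRNPD in U87 (-0.10 to 0.01) included 0.

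Reads of the A1 genes could not be separated fully. Of the 50-base words in the transcripts of HNRNPA1, 23.0% also occurred in other genes, and for HNRNPA1P48 and HNRNPA1L2 these shares were 51.6% and 58.5%. HNRNPA1P48, whose name marks a processed copy although the deposited annotation types it as protein-coding, had 389, 228, 293 and 306 reads and log2 ratios of -0.58, interval -0.83 to -0.35, and 0.12, interval -0.12 to 0.35. HNRNPA1L2, an intronless copy on chromosome 13 at 52642425 to 52643796, had 94, 116, 89 and 64 reads. Its log2 ratio was 0.47 in U251, interval 0.08 to 0.89, and -0.41 in U87, interval -0.91 to 0.06, the widest intervals among the tested members. When the reads of all genes that share at least 5% of its words were pooled, a step added after the data were seen, HNRNPA1L2 stood at -0.55 for U251 and 0.03 for U87, in a pool whose reads were mostly those of HNRNPA1. HNRNPA1 pooled in the same way was at -0.55 and 0.03.

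HNRNPK, HNRNPM and HNRNPR, which bind C-rich, GU-rich and other single-stranded RNA, had log2 ratios of -0.21 to -0.33 in U251 and of -0.10 to -0.18 in U87. Of the G-tract readers, HNRNPF was at 108, 87.6, 147 and 128 FPKM, with -0.30 and -0.19, and HNRNPH1 at 121, 108, 64.5 and 61.8 FPKM, with -0.16 and -0.06. HNRNPH2 had -0.12 and -0.18 and HNRNPH3 0.06 and 0.03, so that this group spanned both sides of 0. HNRNPL, a reader of CA repeats, had 36.8, 33.4, 29 and 30.4 FPKM with -0.14 and 0.07, and its paralog HNRNPLL had -0.00 and 0.02.

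HNRNPC, which binds uridine tracts and keeps Alu-derived exons out of mRNAs, was at 101, 111, 59.7 and 58.5 FPKM. It had a log2 ratio of 0.14 in U251, interval 0.10 to 0.17, and -0.03 in U87, interval -0.08 to 0.02. HNRNPUL2, an hnRNP U-like protein with a role in DNA end resection, was at 11.9, 15, 14.1 and 17.2 FPKM. Both lines showed a higher level in Bru, by 0.33 in U251, interval 0.23 to 0.44, and by 0.28 in U87, interval 0.18 to 0.39, on the log2 scale. It was the 1 member with the counting interval above 0 in both lines, against 10.1% of all genes. The readthrough gene HNRNPUL2-BSCL2 overlaps 44.1% of its exon bases. Pooling both gave 1354, 1510, 1380 and 1621 reads beside 1352, 1509, 1380 and 1621 for HNRNPUL2 alone. The pooled log2 ratios of 0.34 and 0.29 therefore could hardly move, and reads left uncounted in the overlap are not recovered by pooling. HNRNPU, a nuclear matrix protein with 15.6% of its exon bases overlapped by other genes, had -0.11 and -0.07, and HNRNPUL1 -0.33 and -0.15.

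Among the SR genes, SRSF2 (ENSG00000161547, chromosome 17, 76734115 to 76737374, minus strand), a nuclear SR protein that also releases paused polymerase, was lower in the Bru library of both lines. Its log2 ratio was -0.53 in U251, interval -0.60 to -0.47, and -0.32 in U87, interval -0.40 to -0.25. In each line the Bru library was the lower, and U251 Bru and U87 Bru, at 57.6 and 54.7 FPKM, lay close together. MFSD11 on the other strand overlaps 36.7% of its exon bases, and with the reads of both genes pooled the log2 ratios were -0.54 and -0.28. Of the 5778 pooled reads in U251 Control, 5276 were those of SRSF2, so the pooled value in U251 could hardly move. Reads left uncounted in the overlap are not recovered by pooling. SRSF7, a shuttling SR protein with a zinc knuckle, had 44.1, 34.2, 38.4 and 33.9 FPKM with -0.37 and -0.18. SRSF6 had -0.32 and -0.06, SRSF5 -0.24 and -0.14, and SRSF11 -0.23 and -0.06.

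SRSF9, a small SR protein close to SRSF1, was at 38.4, 27.2, 37.2 and 39.3 FPKM. Its log2 ratio was -0.49 in U251, interval -0.58 to -0.41, and 0.08 in U87, interval -0.00 to 0.16. Only U251 Bru was low. GATC on the other strand overlaps 46.2% of its exon bases, and pooled with GATC the log2 ratios were -0.36 and 0.12. Here too, uncounted reads of the overlap are not recovered by pooling. SRSF1, the prototype SR protein and a proto-oncogene, had 34.6, 31.2, 34.1 and 29.6 FPKM with -0.15, interval -0.24 to -0.06, and -0.20, interval -0.30 to -0.11. Of its exon bases 60.7% overlap other genes, mainly AC015813.2. TRA2B, which binds GAA-rich enhancers, had 28.4, 23, 18.5 and 15.9 FPKM with -0.30, interval -0.35 to -0.25, and -0.21, interval -0.28 to -0.14. TRA2A had -0.14 and -0.09.

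The SR genes above 0 in U251 were SRSF8, SRSF3 and SRSF4. SRSF8, an intronless relative of SRSF2, was at 11.4, 15.7, 6.91 and 6.96 FPKM. The log2 ratio reached 0.46 in U251, interval 0.34 to 0.59, and 0.01 in U87, interval -0.17 to 0.19. SRSF2 and SRSF8 thus stood on opposite sides of 0 in U251. SRSF3, the smallest SR protein and a link to mRNA export, had 0.09, interval 0.05 to 0.14, and -0.02, interval -0.08 to 0.03. SRSF10, which is active as a repressor when dephosphorylated, had 26.1, 25.3, 17 and 18.7 FPKM with -0.04, interval -0.10 to 0.01, and 0.14, interval 0.07 to 0.21.

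The PTBP genes encode polypyrimidine tract binding repressors, with PTBP1 in most cells and PTBP2 mainly in neurons. PTBP1 was at 92.8, 87.2, 77.6 and 83.3 FPKM, with log2 ratios of -0.09, interval -0.13 to -0.05, and 0.10, interval 0.06 to 0.14. PTBP3 was at 11.8, 11.3, 14 and 14.1 FPKM, with -0.05 and 0.01. PTBP2 had -0.12, interval -0.33 to 0.07, and -0.31, interval -0.70 to -0.01, from 467, 378, 166 and 125 reads.

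**Figure D2:**
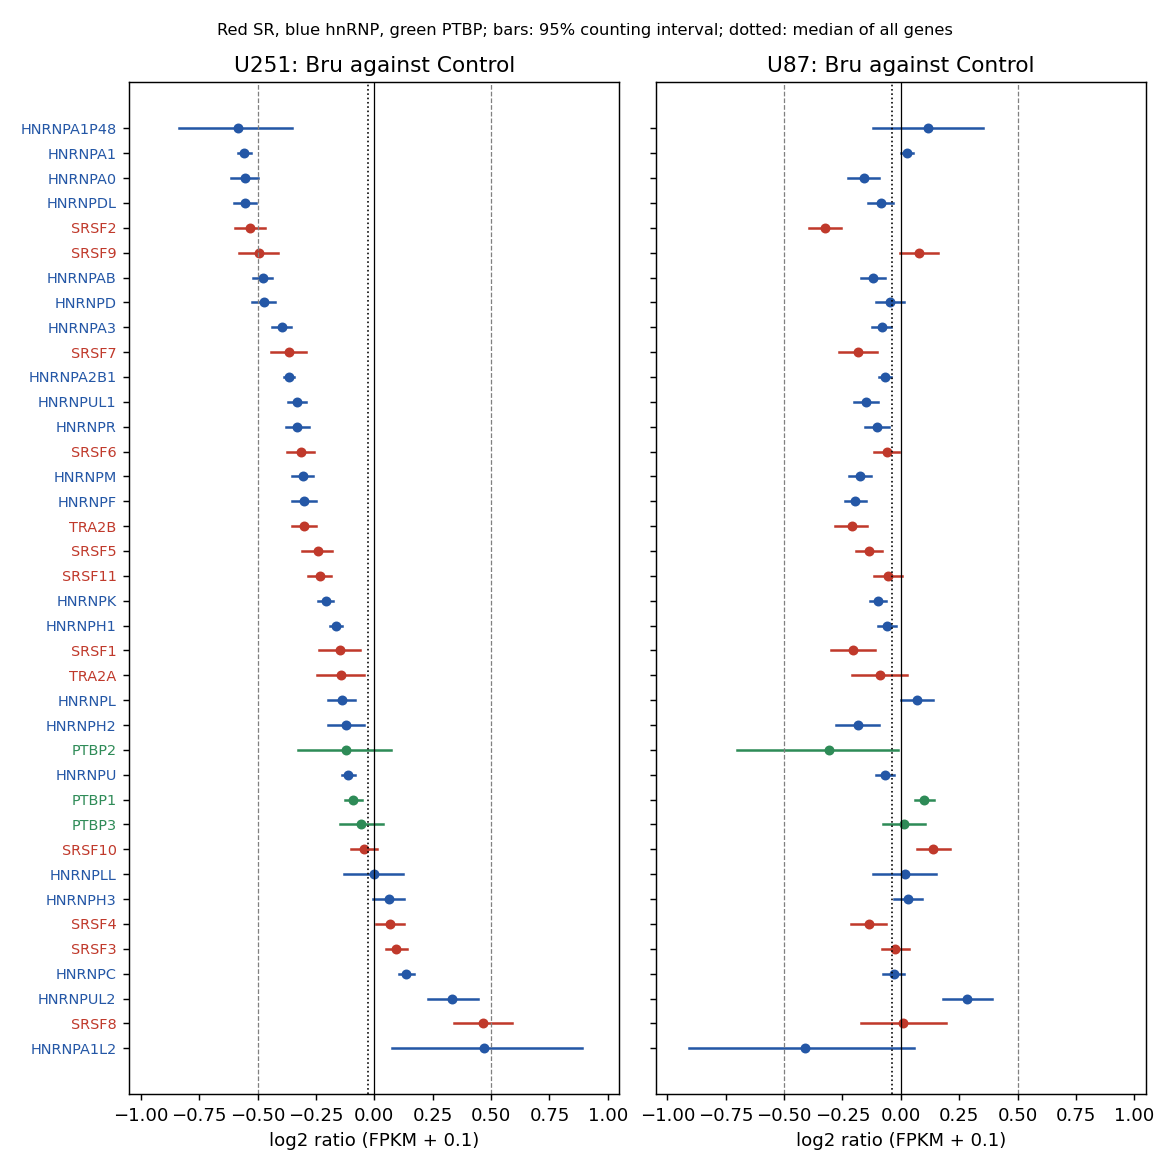
Log2 ratio of Bru to Control of the 38 tested members in U251 (left) and U87 (right), ordered by the ratio in U251. Bars are 95% counting intervals, dotted lines the median of all genes and dashed lines the cutoffs of -0.5 and 0.5, which 5 members pass in U251 and 0 in U87.

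In U87 the members differed less between the Bru and the Control library. The FPKM was lower in Bru for 27 of 38 members, against 56.7% of all genes, and the medians were -0.08 for the hnRNPs, -0.09 for the SR group and 0.01 for the PTBP genes, against -0.04 over all genes. Members below -0.5 and above 0.5 numbered 0 and 0, against 6.46% and 5.75% of all genes, and 0 were past 2-fold, against 1.41% lower and 1.92% higher. The counting interval lay below 0 for 21 members and above 0 for 4 (HNRNPL, HNRNPUL2, PTBP1 and SRSF10), against 28.0% and 15.7%. Rescaled to the 75th percentile of expressed genes, 10 instead of 27 members were lower in U87 Bru and the hnRNP and SR medians were 0.076 and 0.060, while the median of all genes moved to 0.10.

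Set side by side, 19 members had the counting interval below 0 in both lines, against 18.0% of all genes, and 3 had intervals on opposite sides of 0 (HNRNPL, PTBP1 and SRSF4), against 5.14%. These counts hold at the deposited scaling and were not recomputed under the others. The log2 ratio was lower in U251 than in U87 for 28 of 38 members, against 49.1%. The counting interval of that difference lay below 0 for 24 members and above 0 for 5 (HNRNPA1L2, HNRNPC, SRSF3, SRSF4 and SRSF8), against 24.6% and 26.3%. The difference was below -0.5 for HNRNPA1P48, HNRNPA1 and SRSF9 (-0.70, -0.58 and -0.57), against 15.5% of all genes, and above 0.5 for HNRNPA1L2 alone (0.88), against 13.7%. With 1 library per line and condition, these differences describe the libraries. The concentration was given only as the IC50, and the paper's viability time course used more Bru for U251 than for U87. Line and concentration therefore cannot be told apart. Over the 38 genes the log2 ratios of the lines had r = 0.12 and rho = 0.18, against 0.23 and 0.40 over all genes, given as a description. Within the families r was 0.38 over 13 SR genes and 0.00 over 22 hnRNPs. The hnRNPs include HNRNPA1L2, which lies apart at 0.47 and -0.41 with 94, 116, 89 and 64 reads. A value without this gene was not computed, so these figures do not show that members agree less than other genes.

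**Figure D3:**
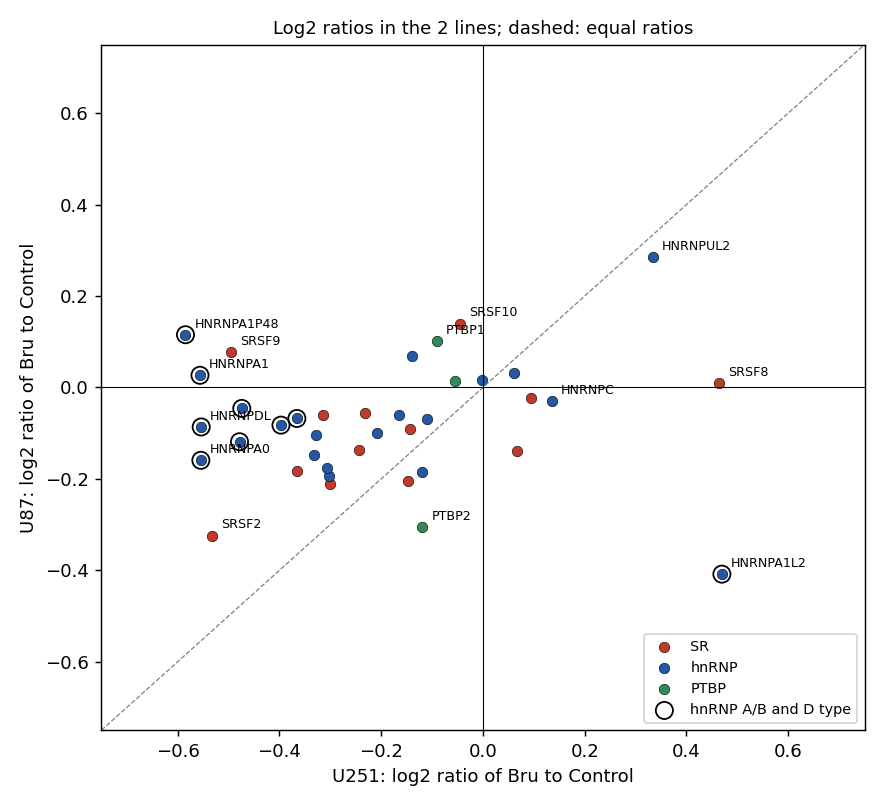
Log2 ratio of Bru to Control in U251 (x axis) and in U87 (y axis) for each tested member, colored by family, with the hnRNP genes of the A/B and D type circled and the dashed line marking equal ratios. Of the 9 circled genes 8 span -0.37 to -0.58 on the x axis and -0.16 to 0.12 on the y axis, and HNRNPA1L2 lies apart at 0.47 and -0.41.

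More members passed the cutoff of 0.5 between the Control libraries than between Bru and Control within a line, and the same held for all genes. Of all genes, 29.8% were below -0.5 and 27.9% above 0.5 between the Control libraries. Between Bru and Control these shares were 19.1% and 14.3% in U251 and 6.46% and 5.75% in U87. In U87 Control 30 of 38 members were lower than in U251 Control, against 50.4% of all genes, with a median log2 ratio of U87 to U251 of -0.28 against -0.01 over all genes. There were 13 members below -0.5, against 29.8%, and 0 above 0.5, against 27.9%. The counting interval lay below 0 for 26 members and above 0 for 7, against 40.9% and 40.1%. Of the tested members PTBP2 alone was past 2-fold (0 with a pseudocount of 1), with a log2 ratio of -1.17, interval -1.54 to -1.02, against 16.0% of all genes below -1 and 14.5% above 1. HNRNPU had 51, 47.2, 26.8 and 25.5 FPKM and a log2 ratio of -0.93, interval -0.96 to -0.90. HNRNPH1 followed with -0.91, HNRNPC with -0.76 and HNRNPUL1 with -0.73, and in each of these 4 genes both U251 libraries stood above both U87 libraries. The members higher in U87 Control were led by SRSF5, at 40.9, 34.5, 56.6 and 51.4 FPKM with a log2 ratio of 0.47, and HNRNPF with 0.44. The U251 and U87 lines come from different donors, and culture, library and line cannot be told apart here.

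**Figure D4:**
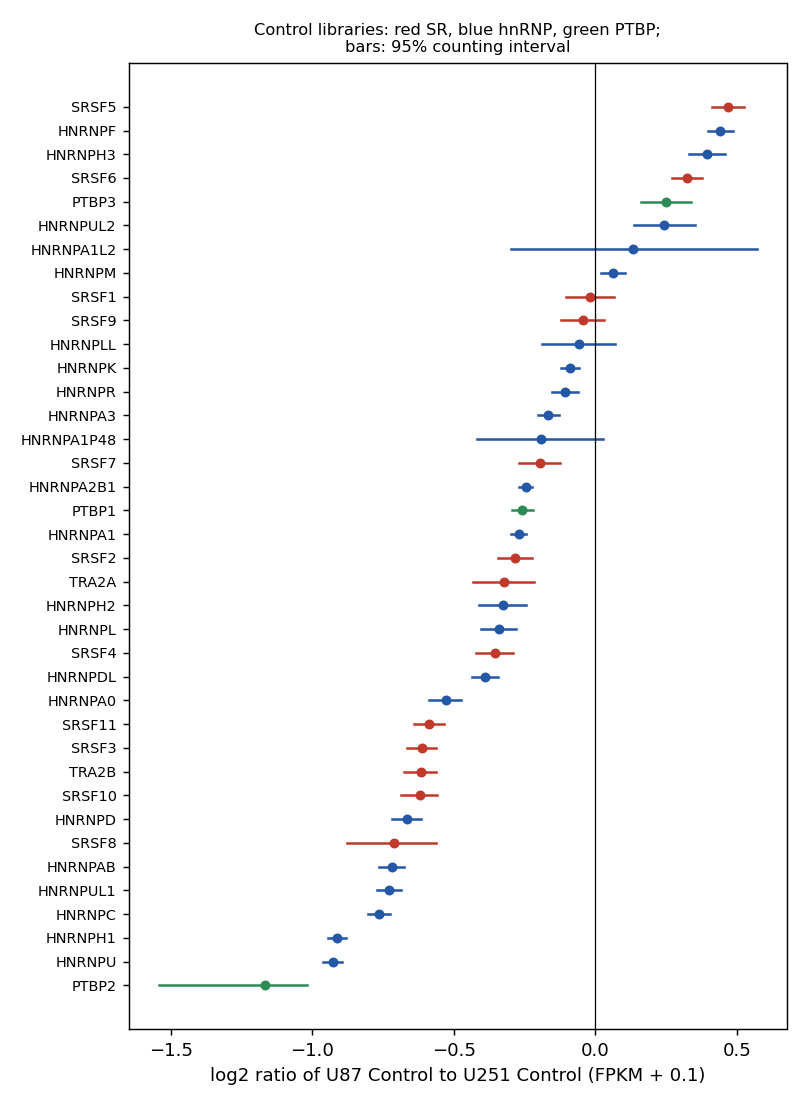
Log2 ratio of U87 Control to U251 Control for the 38 tested members with 95% counting intervals, colored by family. PTBP2 lies lowest at -1.17 and SRSF5 highest at 0.47, and 30 members lie below 0.

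Other genes of the splicing pathway were read for comparison. The core snRNP proteins, which form the spliceosome itself, stood at medians of 0.18 for U251 and 0.06 for U87, and in U251 10 of 40 were above 0.5 and 0 below -0.5, against 14.3% and 19.1% of all genes. PRPF3, a U4/U6 protein, was at 11, 22.6, 6.28 and 6.67 FPKM with 1.04 and 0.09, and PRPF6, a U5 protein that bridges the tri-snRNP, was at 40.6, 78.2, 53.2 and 55.7 FPKM with 0.94 and 0.07. U2AF1 had the largest value, 1.58 and 0.67, at 1.12, 3.53, 0.0797 and 0.186 FPKM. Of its 50-base words 94.3% also occur in U2AF1L5, whose reads were 570, 32, 1149 and 247 beside 261, 728, 16 and 36 for U2AF1, so the ratios of this gene are uncertain. The genes of nonsense-mediated decay had medians of 0.24 and 0.11, and 9 of 10 were higher in Bru in each line, against 6110 of 12949 genes in U251 and 5474 in U87, led by UPF3B, which links exon junctions to decay, at 24.1, 45.1, 9.63 and 13.1 FPKM with 0.90 and 0.44. SMG8, a regulator of the decay kinase SMG1, had 0.48 and 0.14. In U251, then, most SR and hnRNP genes were lower in the Bru library while most genes of these lists were higher.

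The kinases and the importer of SR proteins had medians of 0.10 and -0.09 over 9 genes. CLK2, which phosphorylates SR proteins in the nucleus, was at 19.8, 15.1, 7.07 and 6.11 FPKM with -0.39 and -0.21, PRPF4B had -0.28 and -0.04, and the importer TNPO3 was at 29.2, 38.9, 29.4 and 33.3 FPKM with 0.41 and 0.18. The SR-related proteins, coactivators with similar domains, had medians of 0.00 and 0.03 over 20 genes, with LUC7L at -0.34 and -0.47, BCLAF1 at 0.51 and -0.04 and ACIN1 at 0.26 and 0.14. The other splicing regulators, such as the RBFOX, CELF, MBNL and PCBP families, had medians of -0.27 and -0.03 over 40 genes, with 5 below -0.5 and 0 above 0.5 in U251, which is 12.5% below against 19.1% of all genes. MSI2, a regulator of translation in neural progenitors, had -0.84 and -0.11, RALY, an hnRNP C relative, -0.66 and -0.22, and PCBP4 -0.46 and -0.48. Their median in U251 was nearer to that of the hnRNPs than to that of the core snRNP proteins.

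**Figure D5:**
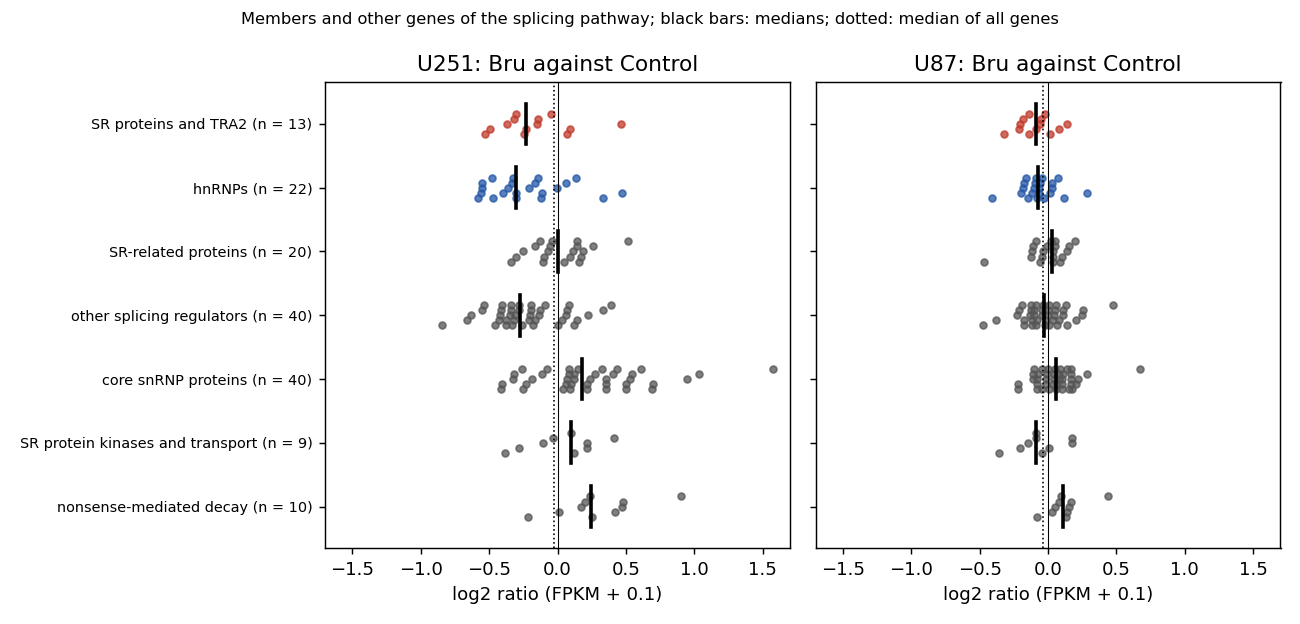
Log2 ratio of Bru to Control in U251 (left) and U87 (right) for the SR and hnRNP members and for 5 other lists of splicing genes, with 1 point per tested gene, black bars at the medians and a dotted line at the median of all genes. In U251 the SR, hnRNP and other regulator medians (-0.23, -0.30 and -0.27) lie below the dotted line and those of the core snRNP proteins and nonsense-mediated decay (0.18 and 0.24) above it.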

How the data were processed

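RNA was sequenced from 4 libraries, 1 per line and treatment, made with the NEB Next Ultra kit as paired-end reads. The authors deposited FPKM per gene with the gene length used. The submitters' processing notes name HISAT2 2.0.5, StringTie 1.3.3b, featureCounts 1.5.0-p3, DESeq2 1.16.1 and the build hg18, without roles. The deposited coordinates and exon lengths equalled those of GENCODE 29 (GRCh38) for 58735 of 58735 genes, and coordinates here are in that build. How reads of overlapping genes and strands were counted is not given in the sources used here, so such reads cannot be told apart.

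FPKM times gene length was a whole multiple of 1 step for 100% of values above 0 (tolerance 0.01 reads), which gave reads per gene and the library size inside the FPKM, 18070193 for U87 Control and 17406238 for U87 Bru among them. Reads of mitochondrially encoded genes were 2.43% to 4.06%. Log2 ratios used FPKM + 0.1 and a minimum mean FPKM of 1, with cutoffs of 0.5 and 1. The interval of a difference between lines is a normal approximation on the log scale from the 4 read counts. The reads carry no molecular identifiers, so intervals and the floor of 3 reads cover counting error only. The precision is set by depth: the median interval reached 0.056 to either side in U251 and 0.061 in U87. Shared sequence was counted over 50-base words of GENCODE 29 transcripts. Scripts used Python 3.11.15, pandas 2.3.3, numpy 2.4.6 and scipy 1.17.1 and were tested on simulated data.

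Named with values were the 5 highest and 5 lowest log2 ratios of each line, the 3 largest differences between lines, the 3 most abundant members of each family, the 5 largest differences between the Control libraries, members under the filter, and the 3 genes of each other list with the largest mean log2 ratio in size over both lines. Other members were named to complete their group. A gene that this rule selects is not reported here. Members and lists were chosen with earlier results of these data known. Protein sequences and protein identity between members were not analysed here. Alternatives were other pseudocounts, scalings and filters, and, added after the data were seen, pooled reads and leaving out members that share reads.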

Additional observations from a re-analysis of the deposited data

Results flagged for a closer look

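Counting intervals on opposite sides of 0 in the lines were found for 3 members. HNRNPL was lower in U251 Bru and higher in U87 Bru, and its log2 ratio in U251 minus that in U87 was -0.21. PTBP1 showed the same directions with a difference of -0.19. SRSF4 was higher in U251 Bru and lower in U87 Bru, with a difference of 0.21. These intervals hold at the deposited scaling and were not recomputed under the others. Scaling by total recovered reads moved HNRNPA0 in U251 from -0.55 to -0.47. A like shift would bring 0 into the U251 intervals of HNRNPL and PTBP1. Rescaling to the 75th percentile moved HNRNPA0 in U87 from -0.16 to -0.01, and a like shift would do the same for SRSF4 in U87. With 1 library per condition the difference between lines was not tested.

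Reads also fell on some of the 123 pseudogenes with names that match the members, which were not counted as members; some entered the pooled reads. In U251 they held 858 reads without and 777 with Bru, and in U87 632 without and 813 with it, above the limit of 3 reads that a count of 0 allows. Of these pseudogenes 48 had a read in some library and 10 passed the filter on FPKM.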

How the results depend on the processing

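Of the members in U251, 5 were below -0.5 as reported, 0 after scaling by total recovered reads and 1 without mitochondrially encoded genes, and 0 were above 0.5 as reported but 2 under both of these scalings and after rescaling to the 75th percentile. The SR median in U251 was -0.23 as reported, -0.15 by total reads and -0.15 without mitochondrially encoded genes. The hnRNP median was -0.30, -0.22 and -0.23 in the same order, and -0.19 with no filter on low FPKM. Without the filter the 4 HNRNPCL genes with 0 reads enter at a log2 ratio of 0, which moves this median. Rescaled to the 75th percentile, the SR and hnRNP medians in U87 were 0.060 and 0.076, against -0.091 and -0.076. In the Control libraries, 1 member was past 2-fold as reported, 0 with a pseudocount of 1 or a minimum mean FPKM of 5, and 2 with no filter. The member that enters without the filter is SRSF12, with 0 reads in U87 Control. Leaving out the 7 tested members that share 20% or more of their words or exon bases with other genes was chosen after the data were seen. Of the 31 members kept, 2 were below -0.5 in U251, against 19.1% of all genes. The rescalings change every gene of a library by 1 factor, so the shares of all genes past the cutoffs move too. Those shares are not given here, and the counts alone do not show a change particular to the members. In U251 the median of all genes was -0.03 as reported, 0.05 by total reads and 0.04 without mitochondrially encoded genes. Under each of these, 30 of 38 members lay below it. The other 97 of 113 recomputed counts and medians stayed within 1.5 times the reported count or within the median counting error. A count of 0 that stayed 0 was taken as unchanged, so the 97 can include results with little room to move. Of single genes, HNRNPA1L2 was at 0.47 in U251, and the pool of its reads with those of its copies was at -0.55. Of 30365 pooled reads in U251 Control, 29681 were those of HNRNPA1 and 94 those of HNRNPA1L2. The pooled value is thus that of HNRNPA1 and does not describe HNRNPA1L2. No paired analysis was possible because each condition has 1 library and the groups compared share only 1 replicate number; ratios were taken within each line. With 1 library per condition none could be left out.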
